A study of Bos taurus with 5 samples.

Results

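The 10 genes described here encode chaperones and folding enzymes of the endoplasmic reticulum (ER): HSPA5, HSP90B1, PDIA3, PDIA4, PDIA6, P4HB, CALR, CANX, SERPINH1 and SDF2L1. They were chosen by name, and each matched exactly 1 of the 27607 genes of the deposited table. Expression was measured by RNA sequencing in 5 cattle (Bos taurus) libraries, and the tissue given on the label was brain, skin, lung, heart or limb, with 1 library each. Cells were lysed and their RNA pre-amplified on a microfluidic chip made by Fluidigm, per the labels' protocols, and no source used here gives the breed, age or sex of the animals or says whether a library came from a single cell, many cells or several animals. No treatment or genotype is named for any library. No label was replicated, so differences describe these libraries only and carry no error and no p-value. The unit is read as FPKM, which divides a gene's fragments by its transcript length and by the mapped fragments of the library, so that levels of different genes are compared per length.

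Proteins that are secreted or inserted into membranes enter the ER unfolded. There, relatives of cytosolic HSP70 and HSP90 hold exposed chains, protein disulphide isomerases form and rearrange disulphide bonds, and lectin chaperones bind glycoproteins while their sugars are trimmed. When unfolded protein accumulates, sensors in the ER membrane start the unfolded protein response, which raises transcription of many of these genes, HSPA5 among the best known.

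The libraries did not carry the defining markers of their labels. Of the 12 neuron genes listed, 0 were above 0 in the brain-label library, and 0 of 10 lung epithelium genes were above 0 in the lung-label library. The skin-label library held 2 of 10 keratinocyte genes above 0, the heart-label 1 of 12 cardiomyocyte genes and the limb-label 1 of 10 skeletal muscle genes. These counts were not particular to the label. The lung-label library held 3 keratinocyte genes, the brain-label 2 cardiomyocyte genes, and the brain- and heart-label 1 skeletal muscle gene each. The 1 lung epithelium gene above 0 was in the limb-label library. Plasma cell genes, a check because these antibody-secreting cells are rich in ER, had at most 1 of 6 entries above 0, and macrophage genes 0 of 6, in each library. Of 11 fibroblast genes, 6 to 7 were above 0 per library, with the defining genes DCN, LUM, PDGFRB and THY1 at 0 in all 5. Libraries are therefore named only by their label (the brain-label library and so on), with no claim on the tissue. Between 5109 and 6634 of all 27607 genes were above 0 per library, and the depth in reads was not recovered. The spacing of low values put 1 read at a median of 7.39 FPKM in the brain-label library, over the 272 genes that fitted it, but a depth ratio changed by a factor of 2 fitted 255 genes. Members at a few FPKM may therefore rest on very few reads.

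All 10 genes were above 0 in all 5 libraries, against 9.44% of all genes and 30% of the 8694 genes at a mean of 1 FPKM or more. Detection depends on level, and 7 of the 10 have a mean of at least 100 FPKM. No share above 0 was taken for all genes at that level, so the contrast may reflect level alone. The same limit holds for detection counts of the lists below. Their means over the 5 libraries ran from 22.5 FPKM for SERPINH1 to 999 FPKM for HSPA5. Together they held 0.327% of the summed FPKM in the brain-label library, 0.306% in the heart-label, 0.217% in the skin-label, 0.169% in the limb-label and 0.102% in the lung-label library. HSPA5 made up 57.9% of that sum in the brain-label library and 7.04% in the lung-label. Without HSPA5 the order changed: the rest held 0.171% in the heart-label, 0.170% in the skin-label, 0.138% in the brain-label, 0.0950% in the lung-label and 0.0941% in the limb-label library. Whether a lower level reflects fewer cells of a type or less RNA per cell cannot be told apart.

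**Figure D1:**
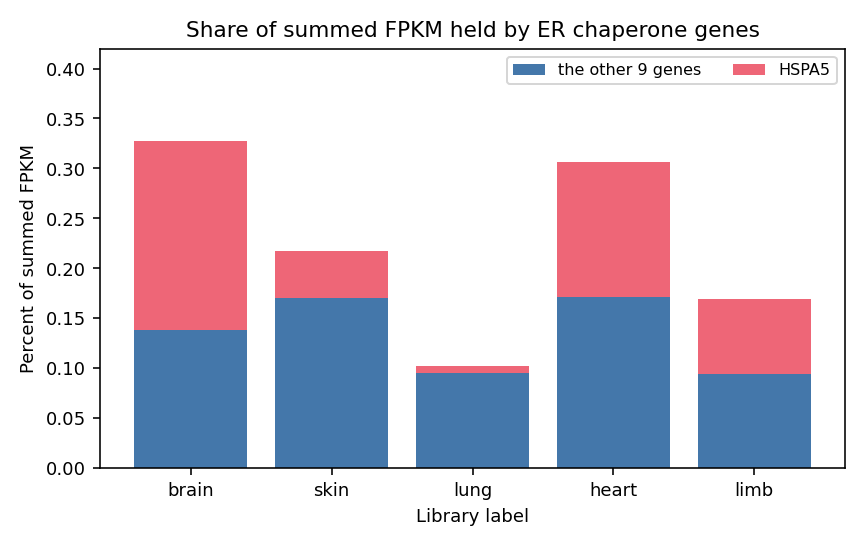
Share of the summed FPKM (percent, vertical axis) held by the ER chaperone genes in each library (horizontal axis), with HSPA5 (red) stacked on the other genes (blue). The bars run from 0.102% in the lung-label to 0.327% in the brain-label library, and HSPA5 accounts for most of the difference between the brain- and limb-label bars.

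HSPA5 (ENSBTAG00000007662), also called BiP, is the HSP70 of the ER and keeps the stress sensors inactive while it is bound to them. It stood at 2032 FPKM in the brain-label library, 1488 in the heart-label, 847 in the limb-label, 542 in the skin-label and 84.3 FPKM in the lung-label library. The lung-label library was low and apart from the others: after adding 1 to each value, the skin-label value was 6.36 times higher, while neighbours in the rest of the order differed 1.36 to 1.76 times. The highest value was 23.8 times the lowest, and 3.75 times without the lung-label library. HSPA5 was the most abundant of the 10 genes in the brain-, skin-, heart- and limb-label libraries and ranked 7 of 10 in the lung-label.

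HSP90B1 (ENSBTAG00000003362), or GRP94, is the HSP90 of the ER and folds integrins and Toll-like receptors among other proteins. Its level was 434 FPKM in the skin-label library, 408 in the heart-label, 240 in the brain-label, 183 in the lung-label and 144 FPKM in the limb-label library. The skin- and heart-label libraries were thus high and close together, and the brain-label library, highest for HSPA5, was in the middle. The ratio of HSPA5 to HSP90B1 in FPKM was 8.45 in the brain-label library, 5.90 in the limb-label, 3.65 in the heart-label, 1.25 in the skin-label and 0.460 in the lung-label. HSPA5 and HSP90B1 therefore stood in a different proportion in each library, and the proportion was inverted only in the lung-label one.

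SDF2L1 (ENSBTAG00000000067), a small ER protein that acts with HSPA5 and its J-domain partner DNAJB11, had an order of its own. It stood at 105 FPKM in the skin-label library, 77.1 in the lung-label, 71.2 in the heart-label, 26.9 in the brain-label and 18.4 FPKM in the limb-label library. The skin-, lung- and heart-label libraries formed a high group, separated from the brain-label library by 2.58 times. HSPA5 was 75.4 times SDF2L1 in the brain-label library and 1.09 times in the lung-label.

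**Figure D2:**
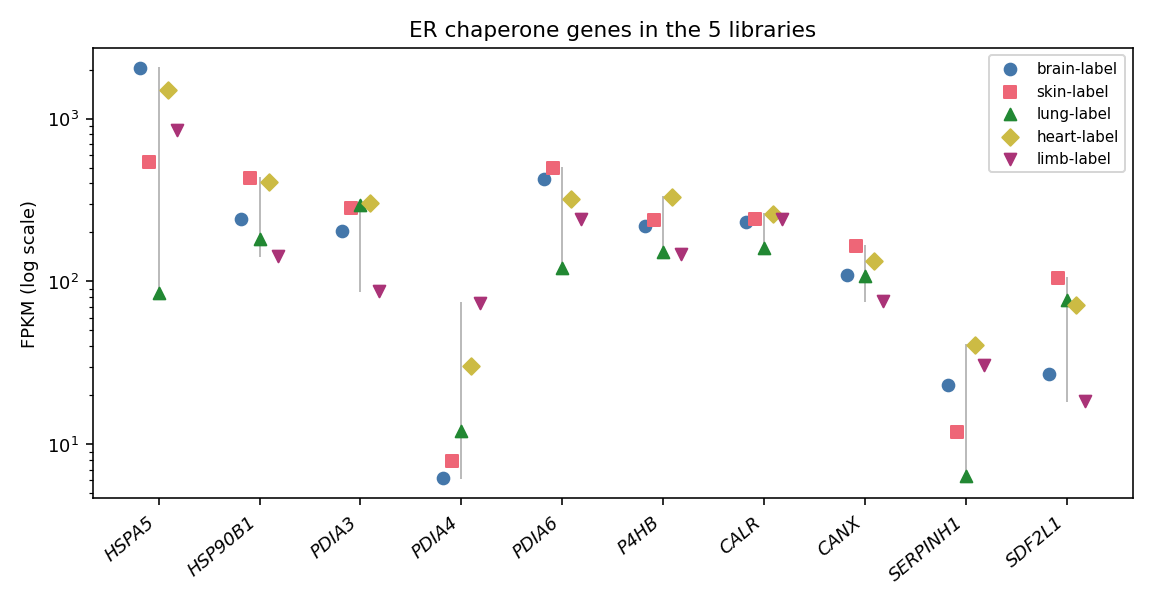
FPKM (vertical axis, log scale) of the 10 genes (horizontal axis) in the 5 libraries, 1 point for each library and a grey line from the lowest to the highest. HSPA5 runs from 84.3 to 2032 FPKM, whereas the 5 points of CALR lie between 160.0 and 261 FPKM.

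The disulphide isomerases differed in level and in order. PDIA6 (ENSBTAG00000001928), an isomerase that also binds HSPA5, was at 499 FPKM in the skin-label library, 423 in the brain-label, 319 in the heart-label, 241 in the limb-label and 121 FPKM in the lung-label library. As for HSPA5, the lung-label library was lowest, here 1.98 times under the next value. P4HB (ENSBTAG00000006045), or PDI, is the classical isomerase and also a subunit of the collagen prolyl 4-hydroxylase. P4HB stood at 328 FPKM in the heart-label library, 239 in the skin-label, 217 in the brain-label, 152 in the lung-label and 147 FPKM in the limb-label library, and the lung- and limb-label values were within 1.03 times of each other. PDIA3 (ENSBTAG00000017196), or ERp57, works on glycoproteins bound to the lectin chaperones. PDIA3 was at 301 FPKM in the heart-label library, 294 in the lung-label, 282 in the skin-label, 203 in the brain-label and 88.0 FPKM in the limb-label library. Here the limb-label library was the one apart, 2.30 times under the next value, and the lung-label library was among the high ones. Without the limb-label library the highest value of PDIA3 was 1.48 times the lowest.

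PDIA4 (ENSBTAG00000017143), or ERp72, a larger isomerase with more thioredoxin-like domains, was the lowest isomerase, and its limb-label value went against the others. It was at 74.0 FPKM in the limb-label library, 30.3 in the heart-label, 12.0 in the lung-label, 7.85 in the skin-label and 6.21 FPKM in the brain-label library. The limb-label library, low for PDIA3, HSP90B1 and SDF2L1, was the high one here, 2.39 times over the heart-label. The highest value was 10.4 times the lowest, and 4.35 times without the limb-label library. The brain-, skin- and lung-label values may rest on very few reads. The level of 1 read is given above only for the brain-label library, and it varies with transcript length. Adding 10 instead of 1 brought the ratio to 5.18.

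The lectin chaperones were the steadiest of the 10 genes. CALR (ENSBTAG00000015114), calreticulin, the soluble lectin and a calcium store of the ER, was at 261 FPKM in the heart-label library, 243 in the skin-label, 242 in the limb-label, 230 in the brain-label and 160.0 FPKM in the lung-label library. The 4 higher values lay close together and only the lung-label library was lower, by 1.44 times. CANX (ENSBTAG00000048107), calnexin, its membrane-bound relative, was at 166 FPKM in the skin-label library, 133 in the heart-label, 109 in the brain-label, 108 in the lung-label and 76.0 FPKM in the limb-label library. The brain- and lung-label values differed by 1.01 times, and the limb-label library was lowest. The ratio of CALR to CANX in FPKM was 1.47 and 1.48 in the skin- and lung-label libraries, 1.96 and 2.11 in the heart- and brain-label and 3.19 in the limb-label.

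SERPINH1 (ENSBTAG00000001027), or HSP47, a chaperone that binds folded procollagen, was at 40.5 FPKM in the heart-label library, 30.5 in the limb-label, 23.0 in the brain-label, 11.9 in the skin-label and 6.36 FPKM in the lung-label library. The heart-, limb- and brain-label libraries were high, and the brain-label value was 1.87 times the skin-label. Its highest value was 5.64 times the lowest, 3.23 times without the lung-label library and 3.09 times with 10 added instead of 1. Collagen I is a main client of SERPINH1. Its chain COL1A2 was at 523 FPKM in the heart-label, 311 in the brain-label, 174 in the limb-label, 19.7 in the skin-label and 6 FPKM in the lung-label library, with the highest and lowest libraries of SERPINH1. Its chain COL1A1 was also highest in the heart-label library but lowest in the skin-label, at 11.4 FPKM, with 37.2 FPKM in the lung-label.

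Variation over the libraries was read against all genes, because most genes in such sparse libraries vary. A gene was called variable when its highest value was at least 10 FPKM and at least 4 times its lowest after adding 1. This held for 5 of the 10 genes, HSPA5, PDIA4, SERPINH1, SDF2L1 and PDIA6, against 72.3% of genes at a mean of 1 FPKM or more. PDIA6 lay just inside that limit, at 4.09 times, and PDIA3 just outside, at 3.40 times. Level matters for this count: of the 7 members with a mean of at least 100 FPKM, 2 were variable, against 39.2% of the 1358 genes at that level. The other 3, SDF2L1, PDIA4 and SERPINH1, were all variable, against 90.1% of genes at a mean from 10 to under 100 FPKM. The ratio of HSPA5 was larger than that of 87.8% of the genes at a mean of 100 FPKM or more, and the ratio of CALR, 1.63, larger than that of 6.55% of them. Without the lung-label library 2 members were variable by this rule, PDIA4 and SDF2L1.

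**Figure D3:**
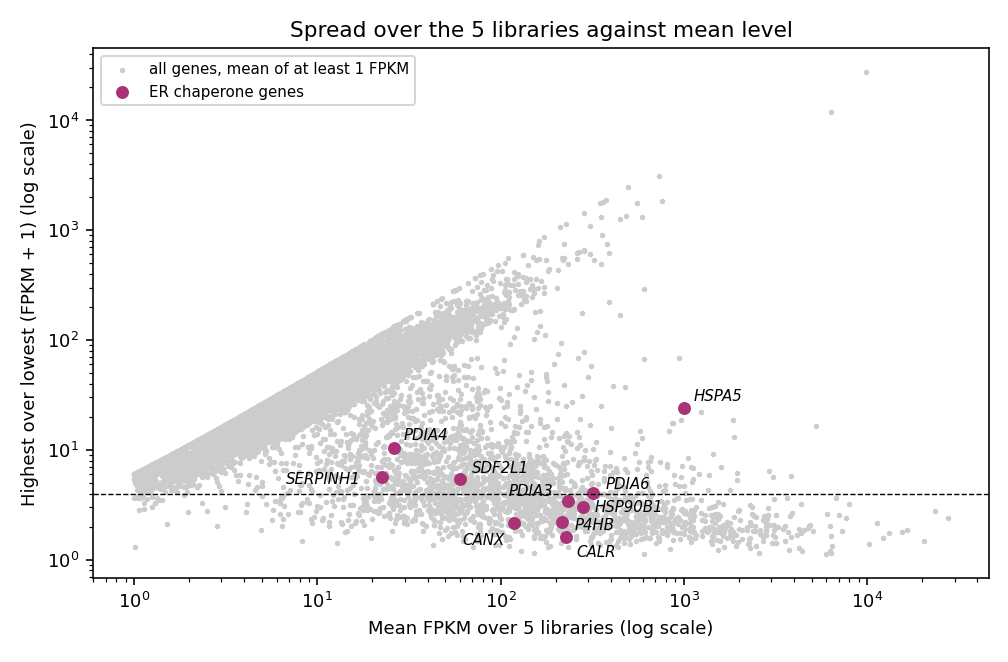
Highest over lowest (FPKM + 1) of the 5 libraries (vertical axis, log scale) against mean FPKM (horizontal axis, log scale), for genes at a mean of 1 FPKM or more (grey) and the ER chaperone genes (purple), with the limit of 4 dashed. HSPA5, at 23.8 times, lies above most genes of its level, and CALR, at 1.63 times, near the lower edge.

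Each library was next set against the mean log2(FPKM + 1) of the other 4, and shares of genes are given first for the genes whose mean was 1 FPKM or more and then for those at 100 FPKM or more. In the heart-label library all 10 members were above that mean, by 0.19 (PDIA6) to 1.49 (HSPA5) on the log2 scale, where 49.7% and 43.9% of genes were above it. Their median difference was 0.74, against -0.01 and -0.12 over those genes. In the lung-label library 8 of 10 members were below the mean of the others, where 52.2% and 41.9% of genes were, and the exceptions were PDIA3 (0.57) and SDF2L1 (0.79). The median there was -0.60, against -0.16 and 0.21. The skin-label library had 7 of 10 members above the mean of the others (39.5% and 56% of genes), with a median of 0.38 against -0.73 and 0.13. The limb-label library had 6 of 10 below it (59.4% and 49.6%), with a median of -0.47 against -0.67 and 0.01. The brain-label library had 5 of 10 above it (52.9% and 55.2%), with a median of -0.02 against 0.15 and 0.09. Each library is part of the reference of the others, so these medians are not independent of each other. Rescaling the libraries by the median ratio moved the heart-label values by 0.14 on the log2 scale, upwards.

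Differences of at least 1 on this log2 scale are given with the same pair of shares. In the lung-label library HSPA5 (-3.67), SERPINH1 (-1.78) and PDIA6 (-1.55) were lower by that much, 3 of 10 against 34.3% and 15% of genes, and 0 of 10 were higher, against 33% and 19.4%. In the limb-label library SDF2L1 (-1.72), PDIA3 (-1.59) and HSP90B1 (-1.05) were lower, 3 of 10 against 40.2% and 13.8%, and PDIA4 was higher by 2.56, 1 of 10 against 26.1% and 13.4%. In the brain-label library HSPA5 was higher by 2.05, 1 of 10 against 34.7% and 15.8%, and PDIA4 (-1.66) and SDF2L1 (-1.06) were lower, 2 of 10 against 26.7% and 8.98%. In the heart-label library HSPA5 (1.49) and SERPINH1 (1.34) were higher, 2 of 10 against 33.4% and 13%, and 0 of 10 were lower, against 29% and 14.6%. In the skin-label library SDF2L1 was higher by 1.35, 1 of 10 against 25.5% and 18.7%, and PDIA4 was lower (-1.29), 1 of 10 against 42% and 14.2%. PDIA4, SDF2L1 and SERPINH1, the members under 100 FPKM on average, made up 8 of these 14 differences.

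**Figure D4:**
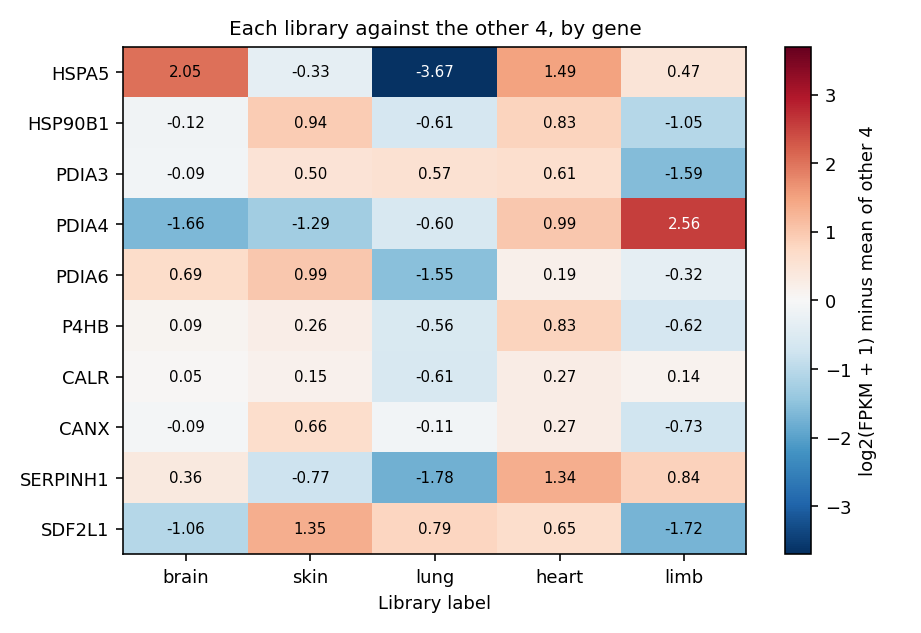
log2(FPKM + 1) of each gene (rows) in each library (columns) minus its mean in the other 4, with red for higher and blue for lower. The heart-label column is positive for all 10 genes, and HSPA5 in the lung-label column, at -3.67, has the largest size of difference.

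Between pairs of libraries a member was counted where the higher value was at least 10 FPKM and at least 2 times the lower after adding 1, and shares of genes are over the 8694 genes at a mean of 1 FPKM or more. Over the 10 pairs this held for 40 of 100 comparisons of a member, against 43.0% for those genes and 36.0% for genes at a mean of at least 100 FPKM. Members at a mean of at least 100 FPKM gave 22 of 70 comparisons, and those under 100 FPKM gave the other 18. For single pairs, shares at the higher level were not taken. Skin and limb labels differed in 7 of 10 members, against 42.7% of genes. This was the highest count at these settings, but with the libraries rescaled by the median ratio skin and limb, lung and heart, and lung and limb labels each differed in 6, and with a ratio of 4 lung and limb labels differed in 4 and skin and limb labels in 2. HSP90B1, PDIA3, PDIA6, CANX and SDF2L1 were higher in the skin-label library (5 of 10, against 21.4%) and PDIA4 and SERPINH1 in the limb-label library (2 of 10, against 21.2%). Heart and lung labels differed in 6 of 10, against 46.8%. HSPA5, HSP90B1, PDIA4, PDIA6, P4HB and SERPINH1 were all higher in the heart-label library (6 of 10, against 22.5%), and 0 of 10 in the lung-label library, against 24.2%.

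Heart and limb labels differed in 5 of 10 members, against 40.8% of genes, with HSP90B1, PDIA3, P4HB and SDF2L1 higher in the heart-label library (4, against 22.4%) and PDIA4 in the limb-label library (1, against 18.4%). Lung and limb labels also differed in 5, against 45.2%, with PDIA3 and SDF2L1 higher in the lung-label library (2, against 25%) and HSPA5, PDIA4 and SERPINH1 in the limb-label library (3, against 20.2%). Between brain and lung labels 4 members differed, against 44%, with HSPA5, PDIA6 and SERPINH1 higher in the brain-label library (3, against 22.9%) and SDF2L1 in the lung-label library (1, against 21.1%). Thus SDF2L1 stood on the opposite side from HSPA5 in both of these last comparisons with the lung label.

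The remaining pairs differed in 2 or 3 members. For brain and limb labels these were HSPA5 and PDIA3, higher in the brain-label library, and PDIA4, higher in the limb-label library (3 in all, against 40.6%, and 2 and 1, against 23.9% and 16.7%). For skin and lung labels HSPA5, HSP90B1 and PDIA6 were higher in the skin-label library (3, against 19.3%) and 0 in the lung-label library, against 24.5%, where 43.8% of genes differed in either direction. For skin and heart labels HSPA5, PDIA4 and SERPINH1 were higher in the heart-label library (3, against 23.7%) and 0 in the skin-label library, against 20.4%, where 44.1% of genes differed. For brain and heart labels PDIA4 and SDF2L1 were higher in the heart-label library (2, against 17.6%) and 0 in the brain-label library, against 20.8%, where 38.5% of genes differed. For brain and skin labels HSPA5 was higher in the brain-label library (1, against 25.1%) and SDF2L1 in the skin-label library (1, against 18.3%), where 43.3% of genes differed. By gene, HSPA5 and PDIA4 differed in 7 of the 10 pairs, SDF2L1 in 6, SERPINH1 in 5, HSP90B1, PDIA3 and PDIA6 in 4 each, P4HB in 2, CANX in 1 and CALR in 0.

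The genes around the chaperones were taken as 11 lists, with 158 entries in the table. Of these, 138 had a mean of at least 1 FPKM and 86 of the 138 were variable by the rule above, against 72.3% of all genes at that level. Of the 52 with a mean of at least 100 FPKM, 22 were variable, against 39.2%. Medians of a list below are differences in log2(FPKM + 1) of a library from the other 4, over members with a mean of at least 1 FPKM. By the difference of at least 1 on that scale, 10 of 17 other ER oxidoreductases were higher and 0 lower in the heart-label library, and 2 were higher and 9 lower in the lung-label library. Of 14 HSPA5 and HSP90B1 cofactors, 8 were higher and 0 lower in the brain-label library, and 3 were higher and 6 lower in the skin-label. In the lung-label library 5 of these cofactors were higher and 4 lower. Of 19 N-glycan genes, 1 was higher and 8 were lower in the lung-label library, and 8 were higher and 3 lower in the skin-label. Of 12 unfolded protein response regulators, 6 were higher and 4 lower in the brain-label library, 2 were higher and 5 lower in the lung-label, and 1 was higher and 6 lower in the skin-label. Of 18 degradation genes, 7 were higher and 7 lower in the skin-label library, and 5 were higher and 4 lower in the lung-label. The shares of all genes beyond this difference are those given above for each library.

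Regulators of the unfolded protein response were partly undetected. ERN1 (IRE1), a sensor kinase and nuclease, and ATF6B, a relative of the sensor ATF6, were at 0 throughout. The sensor kinase EIF2AK3 (PERK) was above 0 only in the brain-label library, at 3.91 FPKM. The sensor ATF6 itself was above 0 in every library. It was at 51.5 FPKM in the heart-label, 41.8 in the brain-label, 25.6 in the limb-label, 16.05 in the lung-label and 1.28 in the skin-label. XBP1, the transcription factor activated by IRE1 splicing, was steady, at 127 FPKM in the heart-label library, 123 in the brain-label, 118 in the limb-label, 84.4 in the skin-label and 76.3 FPKM in the lung-label library. Gene-level values do not tell its spliced form from the unspliced one. ATF4, the factor whose translation PERK raises, was highest in the limb-label library, at 1148 FPKM, then 581 and 579 in the brain- and heart-label, 299 in the lung-label and 170 FPKM in the skin-label library. DDIT3 (CHOP), a stress-induced factor, had another order, with 176 FPKM in the brain-label and 150.0 in the skin-label library, and 40.6 FPKM in the limb-label library, where ATF4 was highest. CREB3, an ER-anchored factor, was highest in the brain-label library, at 150 FPKM, and listed at 0 in the lung-label. TRIB3, a pseudokinase induced by stress, stood at 67.3, 59.6 and 41.0 FPKM in the brain-, limb- and heart-label libraries and was listed at 0 in the skin- and lung-label ones.

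Cofactors of HSPA5 and HSP90B1 had 14 of 15 entries above 0 in at least 1 library. In all 5 libraries 7 were above 0, against 9.44% of all genes and 30% of genes at a mean of 1 FPKM or more. DNAJB9, a J-domain protein that recruits HSPA5 to the sensor IRE1, was at 267 FPKM in the heart-label library. It was at 196 in the brain-label and 84.9 FPKM in the limb-label library and listed at 0 in the skin- and lung-label. MANF, a secreted protein that binds HSPA5, was instead highest in the skin-label library, at 715 FPKM, against 300.1 to 396 FPKM elsewhere. SDF2, the close relative of SDF2L1, ranged from 151 FPKM in the limb-label to 396 FPKM in the heart-label library, and CNPY2 from 128 to 227 FPKM in 4 libraries, with 0 in the skin-label.

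KDEL receptors return escaped chaperones from the Golgi to the ER, by binding a signal at their tail. All 3 were lowest in the lung-label library. KDELR2 stood there at 54.8 FPKM, against 362 in the skin-label, 285 in the heart-label, 200 in the brain-label and 161 FPKM in the limb-label library. KDELR3 was at 45.1 FPKM in the lung-label library and 116 to 198 FPKM in the others. KDELR1 was lowest there only narrowly, at 16.3 FPKM against 16.9 in the heart-label and 19.2 in the limb-label. It was at 44.4 FPKM in the brain-label and 51.1 FPKM in the skin-label library. The median of the list was -1.69 in the lung-label and 1.17 in the skin-label library.

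Of the other ER oxidoreductases, SELENOF, PRDX4 and GPX8 were the most abundant and were above 0 in all 5 libraries, and all 3 were highest in the limb-label one. SELENOF, a selenoprotein that works with the glycoprotein folding sensor, ran from 336 to 621 FPKM, PRDX4, the ER peroxiredoxin, from 273 to 748 FPKM and GPX8, an ER membrane peroxidase, from 111 to 326 FPKM. TXNDC12, a small thioredoxin-like protein, was at 220 FPKM in the brain-label library and listed at 0 in the skin-label, and VKORC1, the vitamin K reductase, at 160 FPKM in the heart-label library and 0 in the limb-label. Among prolyl isomerases, PPIB (cyclophilin B), which acts on collagen and with other ER chaperones, was the most abundant, at 2315 FPKM in the heart-label, 2091 in the skin-label, 1448 in the brain-label, 1120 in the limb-label and 694 FPKM in the lung-label library. The highest and lowest libraries of PPIB were those of CALR and SERPINH1. FKBP2 stayed between 430 and 606 FPKM, and PPIC stood at 3.83 FPKM in the lung-label library against 123 to 288 FPKM in the others. FKBP9, a further ER prolyl isomerase, was at 50.1 FPKM in the skin-label library and listed at 0 in the brain-label.

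Genes for entry into the ER varied little. Of 15 genes of the translocon and signal peptidase, 14 were above 0 in all 5 libraries, against 30% of all genes at a mean of 1 FPKM or more. That share was not taken at the level of these genes. Of the 15, 3 were variable, against 72.3% of genes at a mean of 1 FPKM or more and 39.2% at 100 FPKM or more. SEC61G, a small subunit of the translocon, ranged from 2073 to 3484 FPKM, SSR4 from 633 to 1120 FPKM and SEC61B from 454 to 925 FPKM. The pore subunit SEC61A1 was at 158 FPKM in the brain-label and 2.42 FPKM in the skin-label library, and the signal peptidase subunit SEC11C at 682 FPKM in the limb-label and 85.2 FPKM in the lung-label. For N-glycan addition, DAD1 was at 765 to 1625 FPKM with its highest value in the skin-label library. OSTC and DDOST, subunits of the oligosaccharyltransferase, were highest in the brain-label library (817 and 392 FPKM) and lowest in the limb-label (180 and 60.7 FPKM). MLEC (malectin), a lectin for early glycans, was at 189 FPKM in the skin-label library and listed at 0 in the limb-label, and TUSC3 was listed at 0 in the lung- and heart-label libraries and at 98.1 FPKM in the brain-label.

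Degradation of misfolded ER proteins had 10 of 19 entries above 0 in all 5 libraries, against 9.44% of all genes and 30% of genes at a mean of 1 FPKM or more. SELENOK was highest, at 205 to 517 FPKM, followed by DERL2, a channel component, at 15.2 FPKM in the skin-label library and 140 to 265 FPKM in the others. SELENOS ranged from 50.7 FPKM in the lung-label to 166 FPKM in the heart-label library. HERPUD1, a stress-induced scaffold of the degradation machinery, was listed at 0 in the skin-label library and at 58.5 to 96.8 FPKM in the others, and UBE2J2, a ubiquitin-conjugating enzyme, was listed at 0 in the limb-label and at 32.9 to 87.4 FPKM in the others.

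Of the 11 collagen-modifying enzymes with a mean of at least 1 FPKM, 10 were variable, against 72.3% of genes at that level. Among genes at a mean from 10 to under 100 FPKM, 90.1% were variable, so such a count is common there. Not every enzyme of the list lay in that range. The list median was 2.96 in the heart-label and 1.51 in the brain-label library, and -1.40, -1.21 and -0.86 in the skin-, lung- and limb-label ones. With all 14 entries rather than the 11 with a mean of at least 1 FPKM, the heart- and brain-label medians were 1.99 and 0.53. P4HA1, a catalytic subunit that pairs with P4HB, was at 93.4 FPKM in the heart-label and 60.7 FPKM in the brain-label library and listed at 0 in the other 3. P4HA2, its relative, was at 342 FPKM in the brain-label, 235 in the skin-label, 207 in the heart-label and 45.9 FPKM in the lung-label library and listed at 0 in the limb-label. P3H4 was at 82.6 and 79.0 FPKM in the heart- and brain-label libraries and at most 11.1 FPKM elsewhere, and the lysyl hydroxylase PLOD2 ranged from 28.4 FPKM in the lung-label to 92.6 FPKM in the heart-label library.

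The collagens themselves had a median of 1.95 in the heart-label library, 1.24 over all 14 entries, and -1.04 in the lung-label. COL1A1 stood at 191 FPKM in the heart-label and 131 FPKM in the brain-label library, at 74.4 FPKM in the limb-label and 37.2 FPKM in the lung-label, while COL3A1 was at 33.5 FPKM in the lung-label library and at 67.6 to 72.6 FPKM in the others. COL6A2 was at 68.5 FPKM in the heart-label library and listed at 0 in the lung-label. Fibroblast genes are a list that includes COL1A1, COL1A2 and COL3A1. Over the 6 of 11 with a mean of at least 1 FPKM, the median was 1.74 in the heart-label library and 0.53 in the brain-label. It was 0.33 in the limb-label, -0.55 in the skin-label and -1.49 in the lung-label. Over all 11 fibroblast genes it was 0.29 in the heart-label, 0.04 in the brain-label, 0 in the limb- and skin-label and -0.87 in the lung-label. Their summed level, most of it SPARC and VIM, was 8750 FPKM in the heart-label, 5420 in the brain-label, 5279 in the skin-label, 3977 in the limb-label and 1965 FPKM in the lung-label library. The highest and lowest libraries by each of these measures are those of SERPINH1. The skin- and limb-label libraries change places between the median over 6 genes and the sum. The part of fibroblast content in the result was not tested.

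The median of the cytosolic and mitochondrial chaperones was highest in the lung-label library, although not every gene of the list was highest there. The list median was 1.25 there, against -0.16 and 0.21 over all genes at a mean of at least 1 and 100 FPKM. It was -0.59 in the heart-label library, against -0.01 and -0.12, and -0.94 in the limb-label, against -0.67 and 0.01. In the lung-label library 12 of 12 entries were above 0, where 5991 of all 27607 genes were. HSPA8, the constitutive cytosolic HSP70, was at 1465 FPKM in the lung-label, 1106 in the skin-label, 603 in the limb-label, 552 in the heart-label and 531 FPKM in the brain-label library, so the lung-label library was lowest for HSPA5 and highest for HSPA8. HSP90AB1, the cytosolic HSP90, was at 1239 FPKM in the lung-label library and 410 to 854 FPKM in the others, and HSPE1, the mitochondrial co-chaperonin, at 2879 FPKM against 937 to 1474 FPKM. HSPA9, the mitochondrial HSP70, was instead highest in the brain-label library, at 271 FPKM. It was at 184 in the heart-label, 151 in the limb-label, 145 in the lung-label and 7.97 FPKM in the skin-label library. HSPA4 was highest in the heart-label library, at 65 FPKM, with 41.4 in the brain-label and 38.2 in the skin-label. Its lung-label value was 36.2 and its limb-label value 3.61 FPKM.

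**Figure D5:**
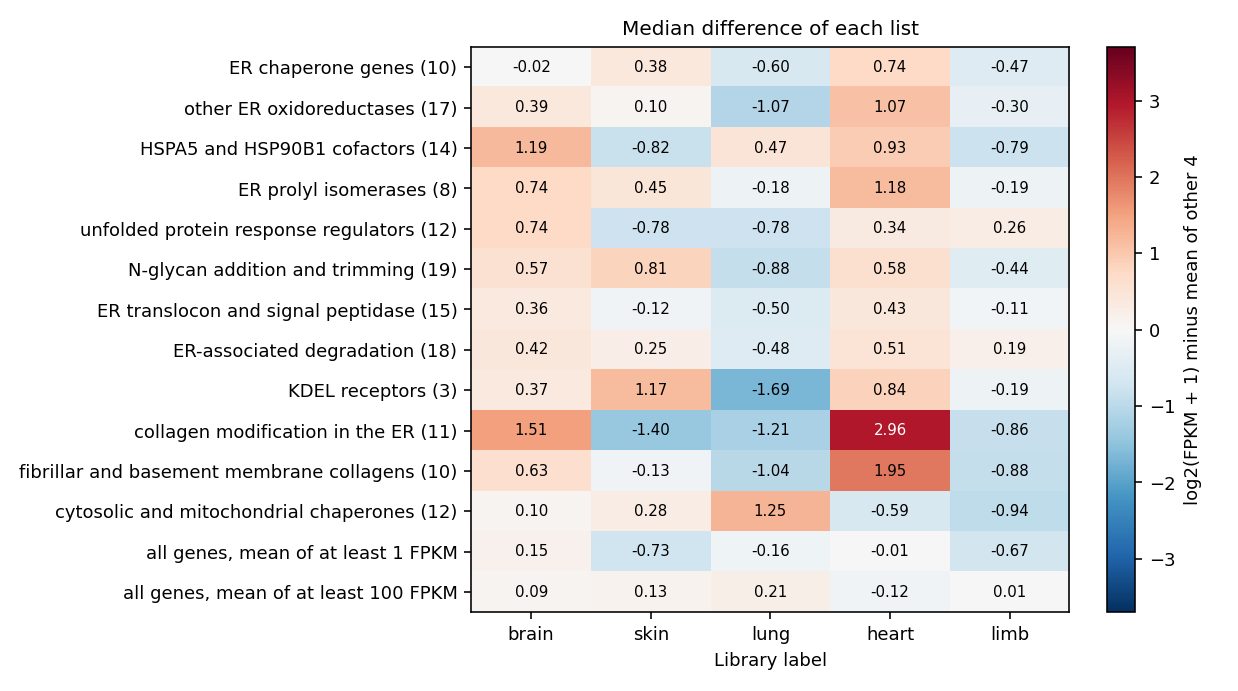
Median over the genes of each list (rows, number of genes in brackets) of log2(FPKM + 1) in a library (columns) minus the mean of the other 4, with the ER chaperone genes at the top and all genes at the bottom. Collagen modification in the heart-label library (2.96) and KDEL receptors in the lung-label (-1.69) have the largest medians in each direction, and cytosolic and mitochondrial chaperones have their highest median in the lung-label library (1.25).

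The genes whose pattern was most like the mean pattern of the 10 were sought among 1274 named genes at a mean of 100 FPKM or more, by the root mean square difference of centred log2(FPKM + 1) over the 5 libraries. The closest were VIM (vimentin, an intermediate filament protein) at 0.14, RAB2A (a GTPase of traffic between ER and Golgi) at 0.15, RABAC1 (which binds RAB proteins) at 0.16, BSG (basigin, a membrane glycoprotein) at 0.16 and SSR3 (a subunit of the translocon-associated complex) at 0.17. VIM stood at 2251 FPKM in the skin-label, 2230 in the heart-label, 1678 in the brain-label, 1399 in the limb-label and 1011 FPKM in the lung-label library. These were picked as the smallest distances, and the median over the 1274 genes was 0.77. The distances of the members from their own mean ran from 0.18 for P4HB and 0.22 for CALR to 1.29 for PDIA4 and 1.32 for HSPA5.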

How the data were processed

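RNA sequencing values of 5 cattle libraries were used, 1 per label. Per the submitters' processing notes, bcl2fastq, STAR and RSEM were used with the ARS-UCD1.2 build. No source used here gives their versions, the annotation or any filter. The table that the authors deposited was taken to hold FPKM by elimination: 98.7% to 99.1% of the values above 0 were not whole, and libraries summed to more than the fixed total of TPM. Neither property excludes TPM rescaled between libraries or normalised counts, so the unit remains an inference. If reads came from only 1 end of the transcripts, division by length would distort levels between genes. The libraries' read totals were not analysed here.

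Values were used as deposited, with 1 added before ratios and logs, and no test was run. The text names the 10 members, for each list the 3 genes with the highest mean and the 2 with the largest ratio at a highest value of at least 50 FPKM, and the 5 genes nearest the members' mean pattern. The 4-times, 2-times and 10 FPKM limits, the lists and the members were chosen with earlier results of these data known. Genes named outside the rule (ERN1, ATF6, ATF6B, EIF2AK3 and the fibroblast genes at 0) were chosen after their values were seen. How often the count rules err in libraries as sparse as these was not tested. No sequence or coordinates are printed, because the sources used here hold none for this build. Python 3.11.15, pandas 2.3.3 and numpy 2.4.6 were used.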

Additional observations from a re-analysis of the deposited data

How the results depend on the processing

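The number of variable members was 5. It was 3 with 10 added instead of 1, 9 with a ratio of 2 instead of 4, and between 2 (without the lung-label library) and 5 when each library was left out in turn. With totals taken without mitochondrial, haemoglobin and ribosomal protein genes it was 4, since PDIA6 came to 3.95 times. The 40 member comparisons over pairs became 13 with a ratio of 4. The median difference of the members ranged, over the alternatives, from 0.47 to 0.91 in the heart-label library, 0.15 to 0.60 in the skin-label, -0.18 to 0.11 in the brain-label, -0.78 to -0.33 in the limb-label and -0.68 to -0.40 in the lung-label, so only the brain-label sign changed. These include the members without HSPA5, added after seeing the data, as was the background of genes at a mean from 10 to under 100 FPKM. The median over all genes, set beside them, turned from -0.73 to 0.13 in the skin-label and from -0.67 to 0.010 in the limb-label library when only genes at a mean of 100 FPKM or more were taken. No paired analysis was possible because each label has 1 library. Depth limits the values of a few FPKM, those of PDIA4 and SERPINH1 above all. Sequence features were not run.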
